A study of Homo sapiens with 6 samples.

Results

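The amino acid transporter genes of the SLC1, SLC3, SLC6, SLC7, SLC36, SLC38 and SLC43 families were described in a comparison of BRD8 siRNA with control siRNA. Members were all genes of the deposited table whose symbol begins with one of these family names, leaving out SLC7A11, which gave 64 of 26364 genes. The test ran on the 39 of them whose normalized counts averaged 10 or more over the 6 libraries, out of 15354 such genes. Normalized counts are the reads of a gene scaled by each library's size factor. RNA-seq was done in Calu3, an established lung adenocarcinoma line with features of airway epithelium. In 3 libraries the cells had received a negative control siRNA and in 3 a siRNA against BRD8, each at 20 nmol with the lipid reagent RNAiMax. BRD8 is a bromodomain subunit of the TIP60 histone acetyltransferase complex. The time after transfection is not given in the sources used here. Both groups are transient siRNA transfections in 1 cell line, and a single BRD8 reagent was used. Effects of that reagent apart from BRD8 loss therefore cannot be told apart from those of BRD8 loss. Whether the 3 libraries of a group stem from separate cultures is not in the labels. The p-values then measure only how far these libraries spread, and that spread may be technical.

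Amino acids are too polar to cross membranes unaided, and cells move them through solute carriers that couple uptake to sodium or protons, or exchange 1 amino acid for another. SLC6 and SLC38 proteins mostly use the sodium gradient to load the cell, SLC1 proteins carry glutamate, aspartate or small neutral amino acids, and SLC36 proteins use protons. SLC7 light chains pair with an SLC3 heavy chain that carries them to the cell surface, where they exchange large neutral, cationic or acidic amino acids. In airway epithelium the apical carriers of the SLC6 family help to clear amino acids from the surface liquid. Several of these genes are known targets of ATF4, the factor that cells make when amino acids run short.

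The libraries held 33640814 to 37896467 reads assigned to genes, and a floor of 3 reads corresponds to 2.84 to 3.24 normalized counts, which covers counting error only. BRD8 stood at 2751, 2928 and 3067 normalized counts in control libraries 1 to 3 and at 1312, 1084 and 1156 in BRD8 libraries 1 to 3 (log2 fold change -1.30, SE 0.0904, adjusted p = 1.13e-04, n = 3 each). All 8 epithelial markers were present, with summed levels of 309935 to 389712 normalized counts in control libraries and 410888 to 459180 in BRD8 libraries. Most of these sums was KRT8 and KRT18. EPCAM was the only marker of this list without a higher mean in BRD8 libraries (21509 in control and 21433 in BRD8 libraries). The leukocyte markers summed to 1339 to 1732 and to 1798 to 2116, almost all of it CD68, with PTPRC between 0 and 5.40 and CD3E between 0 and 1.02 normalized counts. The 5 fibroblast markers summed to 218 to 227 and to 212 to 230, with COL1A2 at 0 in all libraries, COL1A1 at means of 189 and 162, and LUM at 28.5 and 54.7. The endothelial list summed to 3.24 to 7.58 and to 10.4 to 13.3, with VWF at means of 3.70 and 11.4 and PECAM1 between 0 and 2.84. The ciliated-cell markers summed to 139 to 155 and to 217 to 248, most of it RSPH1. Markers of bronchial basal cells summed to 122 to 174 and to 150 to 170. Among them KRT5 had means of 118 and 111, NGFR of 22.9 and 18.5, and TP63 of 13.1 and 27.2. The part of these marker differences in the transporter results was not tested, and in bulk RNA fewer cells of a kind and less RNA per cell cannot be told apart. Control library 2 stood apart on the second principal component, which held 20.6% of the variance. It lay outside the range of the other 5 libraries for 41.4% of the genes tested and for 16 of the 39 transporters (41.0%), being the lowest of the 6 for 8 and the highest for 8.

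Of the 39 tested members, 7 rose and 5 fell (limma, adjusted p under 0.05 over all genes tested), where 10.1% of all genes tested rose and 8.93% fell. The genes that rose were SLC3A1, SLC1A3, SLC7A7, SLC6A14, SLC6A6, SLC38A10 and SLC6A20, by 0.31 to 0.88 on the log2 scale. Those that fell were SLC7A2, SLC43A1, SLC6A10P, SLC1A1 and SLC6A8, with log2 fold changes of -0.72 to -0.41. In total 30.8% of the tested members changed, beside 19.0% of all genes tested. An unadjusted p under 0.05 was reached by 16 members, and by 33.1% of all genes tested. edgeR, DESeq2 and the authors' deposited table each gave 14 changed members, where they called 19.3%, 21.7% and 20.4% of genes. The median log2 fold change was -0.05 over members and -0.01 over all genes tested, and the median size regardless of sign was 0.23 and 0.19. Groups did not overlap for 17 members (43.6%), beside 36.8% of all genes tested. Leaving out control library 2 gave 20 changed members, of which 12 fell, beside 34.1% of all genes changed and 18.1% lower in that fit. Leaving out control library 3 gave 6, of which 1 fell, beside 8.86% and 3.44% of all genes. Leaving out BRD8 library 3 gave 7, of which 2 fell, beside 10.2% and 4.53%. After removal of each library's dependence on transcript length and GC content, 7 members rose and 11 fell, where 16.1% of all genes rose and 19.3% fell. Exons of 18 tested members overlap another gene, on the opposite strand for 16, and the kit does not mark strand.

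**Figure D1:**
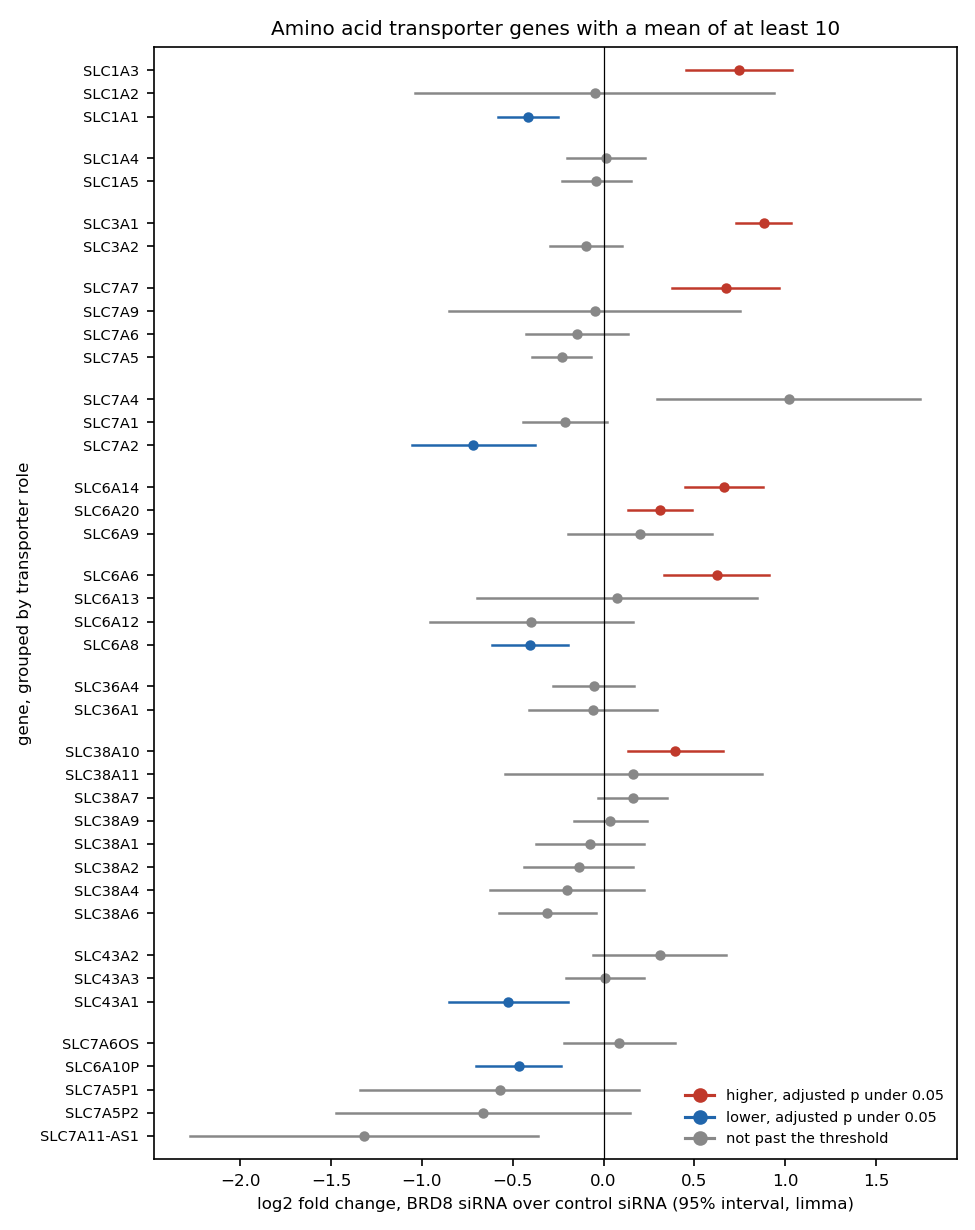
The plot gives the log2 fold change (BRD8 siRNA over control siRNA) on the x axis with its 95% interval from limma for each of the 39 tested transporter genes on the y axis, grouped by role. The 7 genes in red and the 5 in blue are spread over 9 of the 11 role groups, and the widest interval on the plot is that of SLC1A2, which has the lowest mean tested.

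Of 3 tested amino acid carriers of the SLC6 family, 2 rose. SLC6A14 encodes ATB0,+, a carrier of neutral and cationic amino acids of the airway surface. It stood at 9514, 7928 and 9666 normalized counts in control libraries 1 to 3 and at 13619, 13889.5 and 15294 in BRD8 libraries 1 to 3. Every BRD8 library lay above every control library, a 1.58-fold difference (log2 fold change 0.66, SE 0.0938, adjusted p = 0.00220). SLC6A20, a carrier of proline and related imino acids, had 694, 674 and 638 normalized counts in control libraries and 832, 813 and 844 in BRD8 libraries. The groups were apart here too, at 1.24-fold (log2 fold change 0.31, SE 0.0774, adjusted p = 0.0241). The SLC6A20 call was lost on leaving out control library 3 (adjusted p = 0.122) or any of BRD8 libraries 1 (0.0653), 2 (0.0742) and 3 (0.0969), in a range of 0.00422 to 0.122 over the alternatives. The glycine carrier gene SLC6A9 did not pass (log2 fold change 0.20, 95% interval -0.20 to 0.59, adjusted p = 0.472). The remaining 7 amino acid carriers of the family were below the mean of 10, among them SLC6A19, the neutral carrier of gut and kidney, with a mean of 1.97 normalized counts.

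**Figure D2:**
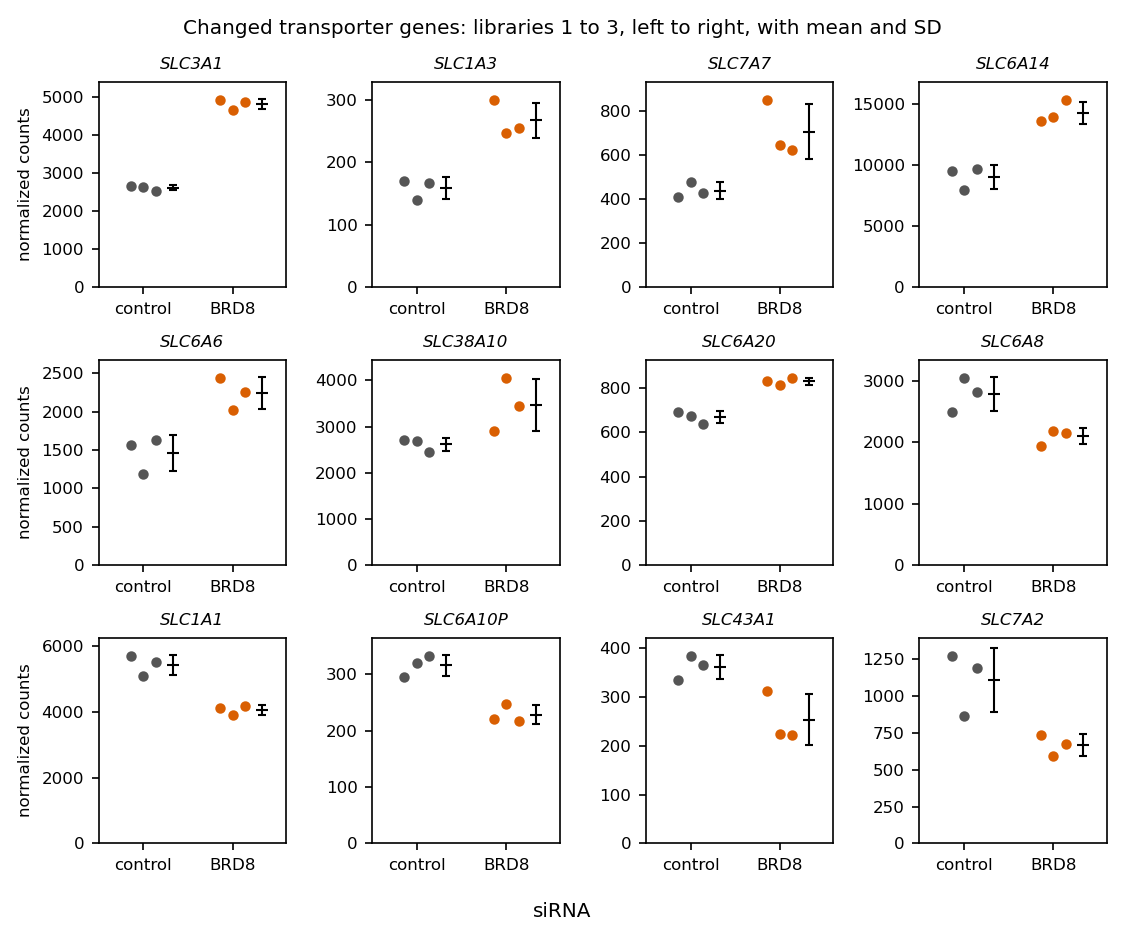
Each panel plots normalized counts (y axis, from 0) of 1 changed transporter gene in control and BRD8 siRNA libraries 1 to 3 (points, left to right), with the mean and SD beside them. In each of the 12 panels the control and BRD8 points are apart, narrowly so for SLC43A1 and SLC38A10.

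SLC3A1 rose while its relative SLC3A2 did not pass the test. SLC3A1 encodes rBAT, the heavy chain of the cystine and cationic amino acid exchanger that is best known from the kidney and from cystinuria. Its level was 2660.4, 2643 and 2533 normalized counts in control libraries 1 to 3 and 4910.1, 4664 and 4861 in BRD8 libraries 1 to 3. The groups were far apart relative to their spread, a 1.84-fold difference and the largest rise among the members that passed (log2 fold change 0.88, SE 0.0661, adjusted p = 1.51e-04). Exons of SLC3A1 overlap those of PREPL on the opposite strand. PREPL stood at 3613, 3028 and 3603 normalized counts in control libraries and at 4174, 3969 and 4316 in BRD8 libraries, a smaller difference that did not pass (log2 fold change 0.29, SE 0.0876, adjusted p = 0.0517). How far reads of either gene were counted for the other was not tested. SLC7A9, the light chain that pairs with rBAT, had a mean of 20.8 normalized counts and did not pass (log2 fold change -0.05, 95% interval -0.85 to 0.75).

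SLC3A2 encodes 4F2hc, the heavy chain shared by the large neutral, y+L and cystine exchangers. It had 6769, 7922 and 6671 normalized counts in control libraries and 6910.3, 6794 and 6219.7 in BRD8 libraries, and the groups overlapped (log2 fold change -0.10, 95% interval -0.30 to 0.10, adjusted p = 0.483). After removal of the length and GC dependence its log2 fold change was -0.20 at an adjusted p of 0.00575, and the adjusted p ranged from 0.00575 to 0.868 over the alternatives.

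Of 4 tested light chains, SLC7A7 rose and the others did not pass. SLC7A7 encodes y+LAT1, which exports cationic amino acids in exchange for neutral ones. It stood at 409, 480.4 and 429 normalized counts in control libraries and at 849, 646 and 623 in BRD8 libraries. All BRD8 libraries were above all controls, with BRD8 library 1 the highest, and the difference was 1.61-fold (log2 fold change 0.67, SE 0.131, adjusted p = 0.00883). SLC7A6, which encodes the related y+LAT2, did not pass with all libraries (log2 fold change -0.15, 95% interval -0.43 to 0.14, adjusted p = 0.459). Without control library 2 its log2 fold change was -0.29 at an adjusted p of 0.0266, within a range of 0.0266 to 0.796. SLC7A5 encodes LAT1, the main carrier of leucine and other large neutral amino acids in growing cells. Its control libraries held 12352, 11130.1 and 11078 normalized counts and its BRD8 libraries 9961, 9931 and 9508. The groups did not overlap, but the difference just missed the threshold (log2 fold change -0.23, SE 0.0719, 95% interval -0.40 to -0.07, adjusted p = 0.0540). It passed in 8 of 17 alternatives, among them DESeq2 on recovered reads (adjusted p = 0.0316) and the authors' deposited table (adjusted p = 0.0291), over a range of 0.00154 to 0.185. The light chain SLC7A8 had a mean of 5.65 normalized counts and was not tested.

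Within each library the level of a gene can be set against that of its relative, which takes out any factor common to both. The 4 pairs given here were chosen after their values were seen, so the ratios are a description without a test. The ratio of SLC3A1 to SLC3A2 counts was 0.369 ± 0.0312 in control libraries and 0.726 ± 0.0494 in BRD8 libraries (mean ± SD, n = 3 each). That of SLC7A7 to SLC7A6 was 0.598 ± 0.156 and 1.04 ± 0.117, with control library 2 at 0.778 the highest of the controls. For the glutamate carriers SLC1A3 and SLC1A1 it was 0.0293 ± 0.00165 and 0.0658 ± 0.00595, and for the cationic carriers SLC7A2 and SLC7A1 0.158 ± 0.0139 and 0.111 ± 0.00531. The groups did not overlap in any of these 4 ratios. Each pair holds a member that passed the test with its groups apart, so this was largely set by the choice of pairs.

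**Figure D3:**
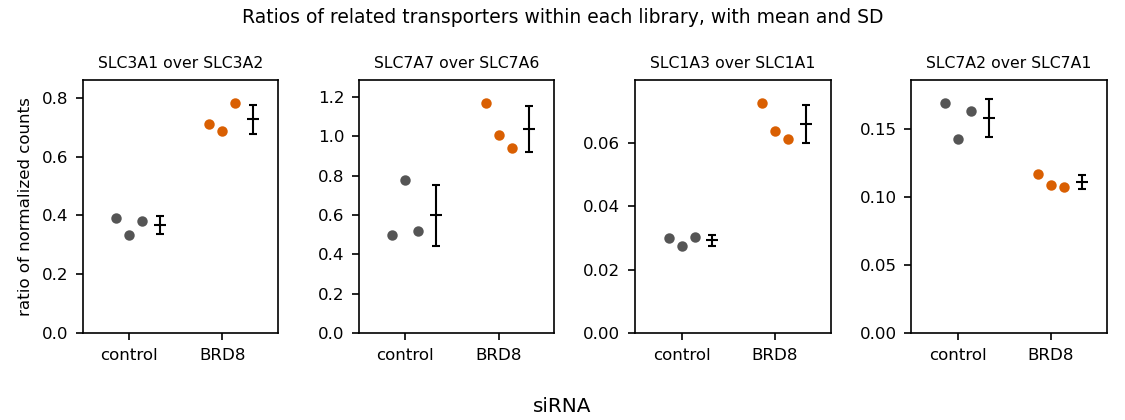
Each panel plots the ratio of normalized counts of a pair of related transporter genes (y axis, from 0) in control and BRD8 siRNA libraries 1 to 3 (points, left to right), with mean and SD. The ratio of SLC3A1 to SLC3A2 lay at 0.334 to 0.393 in control libraries and 0.686 to 0.781 in BRD8 libraries.

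Of the cationic amino acid carriers, SLC7A2 fell. SLC7A2 encodes CAT2, a carrier of arginine and lysine. Its control libraries held 1268, 863 and 1189 normalized counts and its BRD8 libraries 733, 589.8 and 677. Control library 2 was the lowest control yet lay above all BRD8 libraries, and the mean was 39.8% lower (log2 fold change -0.72, SE 0.149, adjusted p = 0.0117). No other member past the threshold fell further. Its adjusted p was 0.0562 without control library 3, the highest of a range from 5.60e-05. SLC7A1 encodes CAT1, the widespread arginine carrier, and had 7508, 6062 and 7307 normalized counts in control libraries against 6255, 5435 and 6295 in BRD8 libraries. Control library 2 lay among the BRD8 libraries, and the gene did not pass (log2 fold change -0.21, 95% interval -0.44 to 0.02, adjusted p = 0.182). Without control library 2 it passed at -0.31 on the log2 scale (adjusted p = 0.0102), and in all it passed in 4 of 17 alternatives, in a range up to 0.469. SLC7A4, a relative whose transport function is unclear, had a mean of 12.3 normalized counts and did not pass (log2 fold change 1.02, 95% interval 0.29 to 1.74, adjusted p = 0.0558), though its groups did not overlap. It passed in edgeR (adjusted p = 0.0485) and without control library 2 (0.0341), in a range up to 0.168.

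The carriers of acidic amino acids moved in opposite directions. SLC1A1 encodes EAAT3, the epithelial and neuronal carrier of glutamate, aspartate and cysteine. It had 5689.5, 5086 and 5509 normalized counts in control libraries and 4129, 3888 and 4170.3 in BRD8 libraries. The groups were well apart and the mean was 25.2% lower (log2 fold change -0.42, SE 0.0730, adjusted p = 0.00567). SLC1A3, which encodes EAAT1, a carrier best known from glia, stood at 171, 139 and 168 normalized counts in control libraries and at 299, 248 and 255 in BRD8 libraries. Its groups were apart as well, at 1.68-fold (log2 fold change 0.75, SE 0.128, adjusted p = 0.00525). Control library 2 was the lowest of the 6 for SLC1A3, and the call held without it and without each other library (adjusted p up to 0.0231 over all alternatives). SLC1A2, the main glutamate carrier of astrocytes, was at a mean of 11.4 normalized counts and did not pass.

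The exchangers of small neutral amino acids gave no difference past the threshold. SLC1A5 encodes ASCT2, through which many cells take up glutamine, and had 7805, 8734 and 7601 normalized counts in control libraries and 8255, 8028 and 7194 in BRD8 libraries. The groups overlapped (log2 fold change -0.04, 95% interval -0.23 to 0.15, adjusted p = 0.779). SLC1A4, the serine and alanine exchanger ASCT1, had a log2 fold change of 0.01 with an interval of -0.20 to 0.23.

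Of 8 tested SLC38 genes only SLC38A10 passed. SLC38A10, a carrier of internal membranes, had 2709, 2679.7 and 2458 normalized counts in control libraries and 2907, 4043 and 3454 in BRD8 libraries. The groups did not overlap, although BRD8 library 1 lay near the controls (log2 fold change 0.40, SE 0.116, adjusted p = 0.0446). The call ended on leaving out control library 1 (adjusted p = 0.0797), control 3 (0.165), BRD8 2 (0.141) or BRD8 3 (0.124), in a range from 0.00128. SLC38A1 and SLC38A2 encode the sodium-coupled glutamine and alanine carriers SNAT1 and SNAT2. SLC38A1 had 15886, 11059 and 14795 normalized counts in control libraries and 13357, 11979.7 and 13932 in BRD8 libraries. SLC38A2 had 11898, 8503 and 11045 against 10421, 8392 and 9595. Control library 2 was the lowest control for both, and the groups overlapped (SLC38A1, log2 fold change -0.07, 95% interval -0.37 to 0.22; SLC38A2, -0.14, -0.44 to 0.16). Without control library 2 both passed, at -0.23 (adjusted p = 0.0389) and -0.28 (adjusted p = 0.0299) on the log2 scale, and so did SLC38A4, a liver-type relative, at -0.41 (adjusted p = 0.0353). Over all alternatives the adjusted p reached 0.973 for SLC38A1, 0.881 for SLC38A2 and 0.845 for SLC38A4. SLC38A11 had a mean of 13.4 normalized counts and did not pass (log2 fold change 0.16, 95% interval -0.54 to 0.87).

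Lysosomal and proton-coupled carriers showed small differences that did not pass, and SLC38A6 showed a larger one that did not pass either. SLC38A9, the lysosomal arginine sensor of the mTORC1 pathway, had a log2 fold change of 0.04 (95% interval -0.17 to 0.24), and SLC38A7, the lysosomal glutamine exporter, of 0.16 (-0.03 to 0.35). SLC36A1, a proton-coupled carrier of lysosomes and the cell surface, had -0.06 (-0.41 to 0.29), and SLC36A4, a carrier of proline and tryptophan, -0.05 (-0.28 to 0.17). SLC38A6 had -0.31 (-0.58 to -0.04, adjusted p = 0.103) and its groups did not overlap. It passed after removal of the length and GC dependence, without (adjusted p = 0.0283) and with a replicate block (0.0409), in a range up to 0.262. Its exons overlap those of TRMT5 on the opposite strand, whose log2 fold change was -0.13 (adjusted p = 0.255).

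Carriers of taurine and creatine, which are SLC6 proteins with substrates other than protein-forming amino acids, moved in opposite directions. SLC6A6 encodes TauT, the taurine carrier. Its control libraries held 1562, 1192 and 1633 normalized counts and its BRD8 libraries 2434, 2021 and 2258. Control library 2 was the lowest of the 6, and all BRD8 libraries lay above all controls, at 1.53-fold (log2 fold change 0.62, SE 0.127, adjusted p = 0.0108). SLC6A8, the creatine carrier, had 2500.2, 3042 and 2824 normalized counts in control libraries and 1948, 2192 and 2158 in BRD8 libraries. The groups did not overlap and the mean was 24.7% lower (log2 fold change -0.41, SE 0.0921, adjusted p = 0.0166). SLC6A8 missed the threshold on leaving out control library 3 (adjusted p = 0.0749), BRD8 1 (0.0618) or BRD8 3 (0.0529), in a range from 2.61e-04. SLC6A10P, a pseudogene copy of SLC6A8, also fell (log2 fold change -0.47, SE 0.103, adjusted p = 0.0151), with 296, 319.6 and 332 against 220.4, 248 and 218 normalized counts. Its call was lost on leaving out control library 3 (adjusted p = 0.0793) or BRD8 3 (0.0677), in a range from 0.00124. The copies are close to identical, so reads of either row may belong to the other. The GABA and betaine carriers SLC6A12 and SLC6A13 were at means of 17.7 and 34.3 normalized counts and did not pass.

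Among SLC43 genes SLC43A1 fell. SLC43A1 encodes LAT3, a carrier of leucine and other large neutral amino acids that works without sodium. It stood at 335, 383 and 365 normalized counts in control libraries and at 313, 225 and 222 in BRD8 libraries. BRD8 library 1 lay close below the controls, and the mean was 29.8% lower (log2 fold change -0.53, SE 0.144, adjusted p = 0.0356). On leaving out control library 1 (adjusted p = 0.0580), control 3 (0.117), BRD8 2 (0.121) or BRD8 3 (0.127) the call was lost, in a range from 0.00327. SLC43A2, which encodes the related LAT4, had a log2 fold change of 0.31 (95% interval -0.06 to 0.67), and SLC43A3, a carrier of purine bases, of 0.01 (-0.21 to 0.22). Neither passed.

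Of the tested members, 5 carry a family name without coding for a carrier. Besides SLC6A10P these were the LAT1 pseudogenes SLC7A5P1 and SLC7A5P2, the antisense transcript SLC7A11-AS1 and SLC7A6OS, a separate gene on the opposite strand of SLC7A6. SLC7A5P1 and SLC7A5P2 had log2 fold changes of -0.57 and -0.66, with wide intervals of -1.34 to 0.19 and -1.48 to 0.15, and they share near-identical sequence with SLC7A5. SLC7A5P2 passed after removal of the length and GC dependence (adjusted p = 0.0455, in a range of 0.0293 to 0.577). SLC7A11-AS1 had 41.7, 15.1 and 41.7 normalized counts in control libraries and 9.36, 9.48 and 16.4 in BRD8 libraries. Control library 2 lay within the BRD8 range (log2 fold change -1.32, 95% interval -2.27 to -0.36, adjusted p = 0.0592), and without it the adjusted p was 0.00197. It passed in 8 of 16 alternatives, among them edgeR (adjusted p = 0.0411), DESeq2 (0.0163) and the authors' deposited table (0.0204), in a range up to 0.208. Its exons overlap those of SLC7A11 on the opposite strand, and without strand marks reads from the shared stretch cannot be told apart. How far reads of either gene were counted for the other was not tested. SLC7A6OS had a log2 fold change of 0.09 and did not pass.

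Levels can be compared between genes only per length, for which normalized counts were divided by the length of the longest coding or, failing that, other GENCODE transcript in kilobases. On this scale SLC3A2 led in control libraries with 3205 normalized counts per kilobase, followed by SLC1A5 with 2792, SLC7A5 with 2539, SLC38A2 with 2144, SLC6A14 with 1999 and SLC38A1 with 1725. These 6 genes held 62.5% of the summed level of the 39 tested members. Of the 6 only SLC6A14 passed the test, and in BRD8 libraries it stood at 3157 per kilobase, above the 2989 of SLC3A2. The order of genes this close depends on the transcript length used, and which transcripts were expressed was not tested. SLC3A1 went from 874 to 1610 normalized counts per kilobase, while its partner SLC7A9 was at 12.3 and 11.4. Among the carriers that fell, SLC1A1 had the highest control level at 1458 per kilobase and SLC43A1 the lowest at 139. Median transcript lengths were 4.30 kilobases for members that rose, 3.76 for those that fell and 3.79 for those that did not pass. The transcripts of the 8 members for which control library 2 was lowest of all had a median of 4.35 kilobases, and those for which it was highest 2.61. For members where it lay inside the range of the other libraries the median was 4.54.

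**Figure D4:**
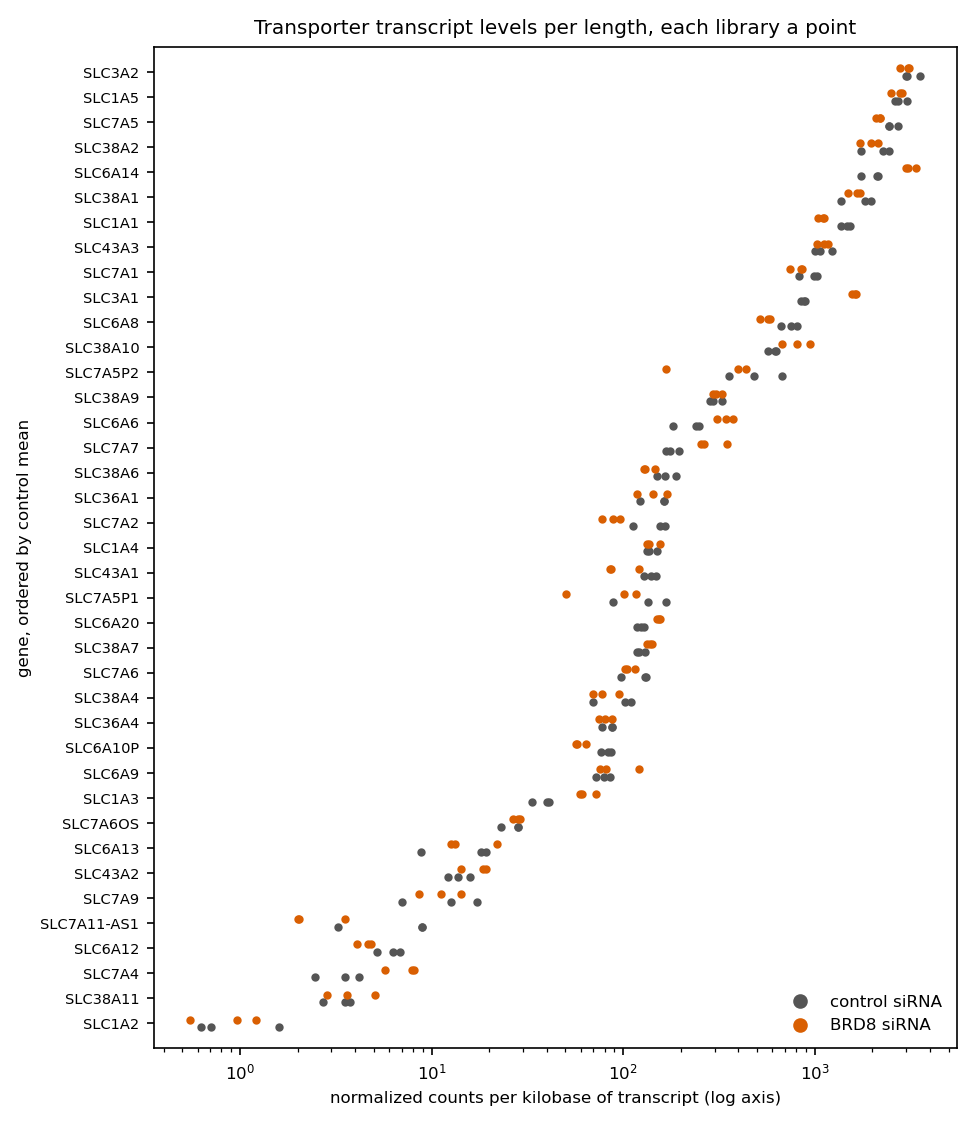
The plot gives normalized counts per kilobase of transcript (x axis, log scale) of the 39 tested transporter genes (y axis, ordered by control mean), with 1 point for each control and BRD8 siRNA library. The most abundant carriers run from SLC3A2 down to SLC38A1, and SLC6A14 and SLC3A1 show the clearest shift among the abundant genes.

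Promoter sequences bear on the known link of these families to amino acid shortage. ATF4 acts through a composite element whose core reads TGATGNAA, and RefSeq promoter windows (GRCh38.p14, 250 bases before to 50 after each start) were searched for it on both strands. The core was present in 3.62% of all 35116 windows. At least 1 window was at hand for 28 of the 39 tested members, and 6 of these held the core. Over all 45 members with a window, tested or not, it was the same 6. Of all 27305 genes in the set, taken without regard to expression, 4.46% held it. The share among all tested genes was not computed, so the count in tested members has no like figure beside it. These 6 stretches are shown because they are the places where tested members carry the core. Each stretch runs 5′ to 3′ on the strand of the gene, with the core or its reverse complement in capitals.
SLC1A3, chr5:36596357-36596386, plus strand: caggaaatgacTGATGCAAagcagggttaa
SLC1A4, chr2:64989381-64989410, plus strand: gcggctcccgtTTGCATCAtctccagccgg
SLC1A5, chr19:46784893-46784922, minus strand: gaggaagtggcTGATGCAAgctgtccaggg
SLC3A2, chr11:62881719-62881748, plus strand: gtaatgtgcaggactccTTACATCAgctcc
SLC7A1, chr13:29595663-29595692, minus strand: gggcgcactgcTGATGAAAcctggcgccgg
SLC38A1, chr12:46266502-46266531, minus strand: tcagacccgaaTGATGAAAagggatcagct

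Of these 6 genes SLC1A3 rose, as given above, and the other 5 did not pass. SLC1A4, SLC1A5, SLC3A2, SLC38A1 and SLC7A1 had log2 fold changes of 0.01, -0.04, -0.10, -0.07 and -0.21. Windows of 8 of the 12 changed members were at hand. A match describes these letters and not a bound site.

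Other genes that carry or sense amino acids were taken from lists. Of 21 tested genes in a list of other carriers, which holds SLC7A11 beside genes of further families, 5 rose and 3 fell, which is 38.1% beside 19.0% of all genes tested, with a median log2 fold change of 0.10. SLC7A11, the light chain of the cystine and glutamate exchanger, fell to 4725, 4196 and 5039 normalized counts from 10613, 6667 and 9726 (log2 fold change -0.93, SE 0.160, adjusted p = 0.00536). SLC25A18, a mitochondrial glutamate carrier, rose by 0.98 on the log2 scale (adjusted p = 0.00750), and the mitochondrial serine carrier gene SFXN1 and its relative SFXN3 by 0.36 (adjusted p = 0.00801) and 0.35 (adjusted p = 0.0152). Outside the naming rule, and given so that the count can be read, PQLC2, the lysosomal exporter of cationic amino acids, and SLC25A29, a mitochondrial carrier of basic amino acids, rose by 0.51 and 0.47. SLC25A12, a mitochondrial aspartate and glutamate carrier, and SLC16A10, an aromatic amino acid carrier, had log2 fold changes of -0.36 and -1.53 and fell. SLC16A10 was a low gene, at 24.6, 15.1 and 29.5 normalized counts in control libraries and 12.5, 4.74 and 5.80 in BRD8 libraries. The values of BRD8 libraries 2 and 3 lay not far above the floor (SE 0.407, adjusted p = 0.0317). On leaving out control library 1 or 3, 2 and 1 of these carriers rose, and on leaving out BRD8 1, 2 or 3, there were 3, 3 and 2. With control library 3, BRD8 2 or BRD8 3 left out, 1 fell. In these 5 fits 8.86% to 12.9% of all genes changed, where 5.42% to 7.44% rose and 3.44% to 5.46% fell. SFXN1 had an adjusted p of 0.0501 without control library 3. SFXN3 missed the threshold on leaving out control 1 (adjusted p = 0.0537), control 3 (0.0664), BRD8 1 (0.0545) or BRD8 3 (0.0677). The adjusted p started at 9.74e-05 for SFXN1 and at 0.00127 for SFXN3 over the alternatives.

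In the pathway from amino acids to mTORC1, the kinase complex that reads their supply, 2 of 41 tested genes rose and 5 fell, or 17.1%, a share near the 19.0% of all genes tested. LAMTOR3, a subunit of the lysosomal Ragulator scaffold, rose from 1135, 1062 and 1127 to 1471, 1480.3 and 1518 normalized counts (log2 fold change 0.43, adjusted p = 0.00465). EIF2AK4, which encodes the kinase GCN2 that senses uncharged tRNA, fell from 923, 798 and 913 to 604, 568 and 642 (log2 fold change -0.54, adjusted p = 0.00537). WDR59, a GATOR2 subunit, fell by 0.50 on the log2 scale (adjusted p = 0.00652), and C7orf60, the S-adenosylmethionine sensor SAMTOR, fell by 0.46 (adjusted p = 0.0166). C7orf60 missed the threshold on leaving out control 1 (adjusted p = 0.0589), control 3 (0.0828), BRD8 1 (0.0537) or BRD8 2 (0.0673), in a range from 5.96e-04. Outside the naming rule, DEPTOR rose by 0.35, and FNIP2 and RRAGD had log2 fold changes of -0.82 and -0.57 and fell. On leaving out control library 2, 6 of these genes rose and 10 fell, beside 15.9% and 18.1% of all genes. A single gene (1) rose with control 1, control 3, BRD8 2 or BRD8 3 left out, beside 5.42% to 6.94% of all genes. With control 1, control 3, BRD8 1 or BRD8 2 left out, 2 fell, beside 3.44% to 5.46% of all genes. These fits called 8.86% to 12.9% of all genes in either direction.

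The 25 untested members comprised 9 with no read in any library and 16 with means of 0.158 to 9.62 normalized counts. Among those without a read were SLC1A6, which encodes a glutamate carrier of the brain, SLC6A5, the glycine carrier gene of inhibitory neurons, and SLC7A3, a cationic amino acid carrier gene. A value below 3 reads in a library lies under the floor, so few or no reads here do not show that a transcript is absent. The glutamine carriers SLC38A3 and SLC38A5 had means of 2.75 and 9.62 normalized counts, and the serotonin carrier SLC6A4 8.48.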

How the data were processed

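RNA-seq libraries of Calu3 were compared, 3 with control and 3 with BRD8 siRNA, grouped by the sample titles. The labels' extraction text names HBE cells instead, while title and cell line fields give Calu3. Per the labels, libraries were made with a TruSeq v2 kit, which does not mark strand. STAR 2.6, featureCounts 1.6.3, DESeq2 1.22.1 and the build hg19 stand in the submitters' processing notes. Annotation, strand setting and filters were not stated. The deposited expression values are a normalized signal (counts over size factors). The authors also deposited a log2 fold change with standard error, a test score (not used, its sign opposite to the fold change) and p-values.

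Whole reads were recovered from the deposited signal (100% whole within 0.01). The test was limma (3.58.1, R 4.3.3) with trended variance on log2(normalized count + 1), run on the 15354 genes averaging at least 10, with Benjamini-Hochberg adjustment over all of them and a threshold of 0.05. That scale understates the change of low genes, while folds and percentages are ratios of group means. The limma fit was tried on simulated counts, which held no outlying library and no length or GC trend. Alternatives were edgeR 4.0.16 (2969 genes changed, 2920 in limma) and DESeq2 1.42.0 on the recovered reads, the authors' deposited comparison, pseudocounts of 0.5 and 5, a mean of at least 50 or no filter, quantile normalization, removal of length and GC dependence (14837 genes), a replicate block, and leaving out each library. Lengths and overlaps are from GENCODE 29, on another build than the data. Members and lists were chosen with earlier results of these data known. Named are BRD8, every member past the threshold, other tested members by value or range, and up to 4 genes a list with the smallest adjusted p.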

Additional observations from a re-analysis of the deposited data

How the results depend on the processing

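Across 17 alternatives no followed gene changed sign while past the threshold. Of the 12 changed members, 6 (SLC3A1, SLC6A14, SLC1A3, SLC1A1, SLC7A7 and SLC6A6) passed in all 17, and the other 6 lost the call when at least 1 library was left out. Of the 27 others, 16 passed in none and 11 in at least 1. Leaving out 1 library gave 1360 to 5229 changed genes (2920 with all), 6 to 20 changed transporters, 5 to 8 higher and 1 to 12 lower, 1 to 6 higher and 1 to 3 lower other carriers, and 1 to 6 higher and 2 to 10 lower mTORC1 pathway genes. The transporter median stayed within 0.0834, the SD over BRD8 libraries, of its main value in all alternatives. After removal of the length and GC dependence, 5252 genes, 11 lower transporters, 5 lower other carriers, and 4 higher and 8 lower mTORC1 pathway genes changed. A single mTORC1 pathway gene was higher (1) in DESeq2, in the authors' deposited table, without a filter on low values and with quantile normalization. The labels do not say whether the replicate numbers pair the samples. Same-numbered libraries correlated at -0.0845, 0.335 and 0.155, and not every library correlated best with its own number. With so few libraries a group, whose deviations from the group mean depend on each other, these correlations cannot decide it. The replicate block gave 3901 changed genes, 8 lower transporters and 8 lower mTORC1 pathway genes, and together with that removal 5441 genes, 11 lower transporters, 5 lower other carriers, and 4 higher and 10 lower mTORC1 pathway genes. The cause of these shifts was not tested. Depth limits the 7 tested members with means under 50, whose intervals are wide.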
